A study of Mus musculus with 12 samples.

Results

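The microglial genes described here are 51 genes fixed by name. They comprise *Tyrobp* itself, the receptors and kinases of its signalling route, and genes by which microglia are usually recognised. A peak was taken as belonging to a gene when the deposited peak list named that gene. All 51 symbols were found in the mouse RefSeq gene table. In WT mice 37 of the 51 genes had at least 1 m6A peak, with 79 of the 33622 peaks of that list, and in *Tyrobp*-/- mice 38 genes had a peak, with 80 of 34935 peaks.

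Hippocampal RNA came from male mice on a C57BL/6 background at 6 months of age. WT mice were littermates of the *Tyrobp*-/- mice, which carry a TALEN deletion in the second exon of *Tyrobp* in all their cells and are labelled Tyrobp KO. Each sample pooled the hippocampi of 3 mice, and 3 samples of each genotype gave an IP and an input library each, 12 libraries in all. In the IP library, fragments of poly(A) RNA were pulled down with an antibody against m6A, and the input library holds the same RNA without that step. The libraries held between 61189368 and 73554506 valid reads. Peaks were called on the 3 samples of a genotype together, so each peak has a single fold enrichment (IP over input) for each genotype and no replicate error. The differences between genotypes below are therefore descriptions of 2 pools, with no test between them.

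TYROBP, also called DAP12, is a small membrane adaptor whose cytoplasmic tail carries an ITAM, the tyrosine motif that immune receptors use to signal. Receptors such as TREM2 have almost no tail of their own and pair with it. After ligand binding, SRC-family kinases such as LYN phosphorylate the ITAM, SYK docks on it, and PLCG2, VAV proteins and their partners carry the signal on, while the phosphatase encoded by *Inpp5d* dampens it. In the brain this route is found mainly in microglia, the resident macrophages, which depend on CSF1R for survival and clear debris and synapses with the help of complement. m6A is a methyl mark on adenosine in mRNA, laid down mostly near stop codons and in 3′ UTRs at a short sequence around an A followed by C.

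The C1q genes show what such a peak looks like at the level of sequence. *C1qc*, which encodes a chain of the complement starter C1q, had a 5′ UTR peak at chr4:136892369-136892946 in WT mice with a fold enrichment of 3.22 and at chr4:136892340-136892976 in *Tyrobp*-/- mice with a fold enrichment of 2.86 (GRCm38). Both peaks cover the first 50 transcribed bases in the RefSeq annotation (GRCm38.p6, minus strand). The stretch at chr4:136892869-136892898 holds the letters GGAC, a form in which the m6A sequence context is often written, here in capitals on the transcribed strand.

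C1qc, bases 17 to 46 from the start: gtctgggagaacaGGACgtctctgtgatta

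The 4 letters stand at bases 30 to 33. Of all 32851 RefSeq starts searched on the transcribed strand alone, 6194 (18.9%) hold GGAC in their first 50 bases, and of the 38 microglial genes with a start listed there 7 do. The starts of *P2ry13*, *Syk* and *Inpp5d* also lie in a peak of at least 1 genotype, and these windows do not hold the letters. A match describes the sequence and does not locate the methylated base.

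Of the 51 genes, 35 had a peak in both genotypes, 2 in WT mice only, 3 in *Tyrobp*-/- mice only, and 11 in neither. The share with a peak was 72.5% in WT mice (exact 95% interval 58.3% to 84.1%) and 74.5% in *Tyrobp*-/- mice (60.4% to 85.7%). Among all 21900 protein-coding genes of the RefSeq table, 56.8% and 58.2% had a peak. The 11 genes without a peak were *Tyrobp*, *Trem2*, *Ctss*, *Itgam*, *Cd68*, *Laptm5*, *Lyz2*, *Axl*, *Cst7*, *Apbb1ip* and *Blnk*. A missing peak does not say that the mRNA lacks m6A, because the peak lists give no expression level and a transcript with few reads can stay below the calling threshold. In RNA of whole tissue, fewer microglia and less RNA per microglial cell cannot be told apart.

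**Figure D1:**
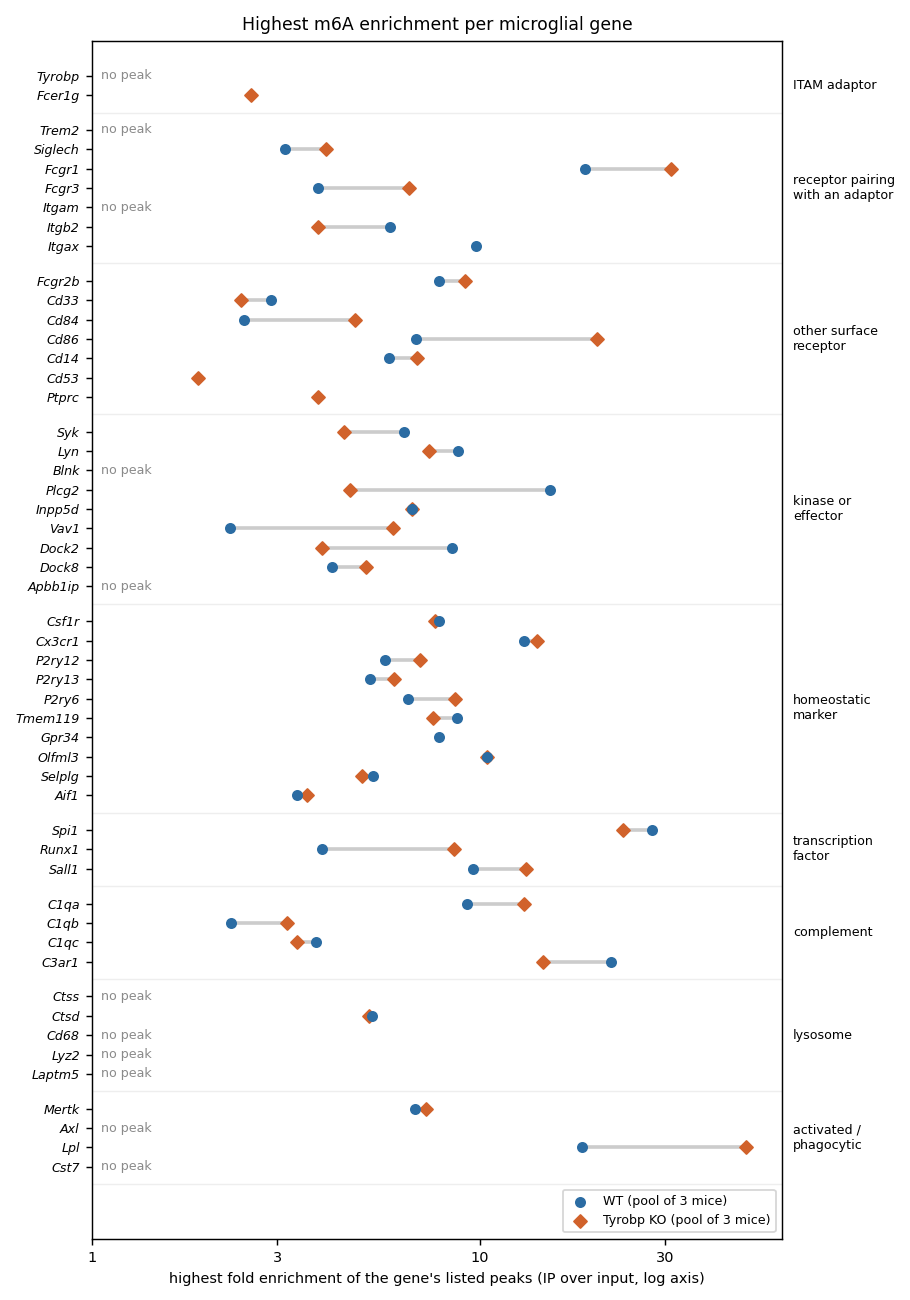
Highest fold enrichment (IP over input, log axis) among the peaks listed for each of the 51 genes, grouped by role, in WT (circles) and Tyrobp KO (diamonds) pools. Each value comes from the 3 samples of a genotype called together, each sample a pool of 3 mice. The 3 mice in the legend are those of 1 sample. A grey line joins the genotypes of 1 gene. *Lpl*, *Fcgr1*, *Spi1*, *C3ar1* and *Cd86* reach the highest values, and 11 genes have no peak in either pool. Listed peaks outside the named gene in RefSeq are included. For *Csf1r* 7.83 in WT and 7.65 in Tyrobp KO are drawn, where the highest within the gene are 5.66 and 2.68. For *Lyn* 8.79 is drawn in WT, where the highest within the gene is 6.84.

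The signalling adaptors were nearly free of peaks. *Tyrobp*, the gene disrupted in this strain, had no peak in either genotype, so the peak lists can neither show its methylation nor check the genotype labels. *Fcer1g*, the other ITAM adaptor, which serves Fc receptors, had no peak in WT mice. In *Tyrobp*-/- mice it had a single peak in its 3′ UTR at chr1:171229572-171229688, with a fold enrichment of 2.56 and an FDR of 2.51e-13.

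Among the 7 receptors that pair with an ITAM adaptor, 5 had a peak in WT mice and 4 in *Tyrobp*-/- mice. *Trem2*, the lipid-sensing receptor that signals through TYROBP, and *Itgam*, the integrin subunit also called CD11b, had none. The strongest signals of this group were in *Fcgr1*, the high-affinity IgG receptor. Its 3′ UTR carried neighbouring peaks that differed in opposite directions. At chr3:96282909-96283266 the fold enrichment was 18.6 in WT and 7.62 in *Tyrobp*-/- mice, a log2 ratio of -1.29. At chr3:96283742-96284575 it was 15.4 in WT and 31.0 in *Tyrobp*-/- mice, a log2 ratio of 1.01, although the *Tyrobp*-/- peak reached further, to position 96285853, and the overlap covers 34.9% of the longer span. With ratios centred on those of all matched peaks this log2 ratio was 0.96, within 2-fold. The higher of the 2 *Fcgr1* peaks was thus the first in WT and the second in *Tyrobp*-/- mice.

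*Fcgr3*, the low-affinity activating IgG receptor, had a fold enrichment of 3.81 in WT and 6.56 in *Tyrobp*-/- mice in its 3′ UTR. *Itgb2*, the β2 integrin subunit, had 5.86 and 3.81, and neither peak reached an FDR below 0.05. *Siglech*, a sialic acid receptor that signals through TYROBP, had a 3′ UTR peak in each genotype, of 3.13 in WT and 4.00 in *Tyrobp*-/- mice, but at places that did not overlap. *Itgax*, the integrin subunit CD11c that marks activated microglia, had peaks in WT mice only. The 2 peaks in its 3′ UTR had fold enrichments of 9.77 (FDR 0.0282) and 7.81 (FDR 0.0309). The WT list gives the first of these values at 370 peaks, and 16 other WT peaks share the second. Such values do not set *Itgax* apart from other genes. Because Fc receptor genes resemble each other in sequence, reads could be shared between them, and how the authors treated such reads is not given in the sources used here.

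The 7 other surface receptors had a peak in 5 genes in WT and in all 7 genes in *Tyrobp*-/- mice. *Cd53*, a tetraspanin of leukocytes, and *Ptprc*, which encodes the CD45 phosphatase, were listed in *Tyrobp*-/- mice only. The *Cd53* peak in the 3′ UTR had a fold enrichment of 1.87 (FDR 2.45e-07), and the *Ptprc* peak in the 3′ UTR one of 3.81 (FDR 0.0513). *Cd86*, a costimulatory ligand for T cells, showed the widest difference of all microglial genes. Its WT peak in the first exon had a fold enrichment of 2.93 and an FDR of 0.141. The *Tyrobp*-/- peak that overlaps it had 20.0 and an FDR of 4.79e-05, a log2 ratio of 2.77. The value of 20.0 is shared, with its p, by 42 other peaks of the *Tyrobp*-/- list and is not particular to *Cd86*. The *Tyrobp*-/- peak spans an intron and joins another exon (chr16:36620972-36642679), so the overlap covers only 0.691% of the longer span, introns included. The exonic lengths are 150 bp in WT and 269 bp in *Tyrobp*-/- mice, so the peaks overlap but differ in extent. In the 3′ UTR of *Cd86* a WT peak of 3.23 overlapped a longer *Tyrobp*-/- peak of 7.39, a log2 ratio of 1.19. A second row at the same place, with 3.23 and 5.72, had a log2 ratio of 0.82 and stayed within 2-fold.

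The remaining receptors of this group moved less. *Fcgr2b*, the inhibitory Fc receptor, had a fold enrichment of 7.84 in WT and 9.16 in *Tyrobp*-/- mice in its main 3′ UTR peak. *Cd33*, an inhibitory sialic acid receptor, had 2.89 and 2.41. *Cd14*, the co-receptor for bacterial lipopolysaccharide, had 5.82 and 6.86, and *Cd84* had 2.46 and 4.48, a log2 ratio of 0.86 that lies just inside the 2-fold limit.

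Downstream of the ITAM, 7 of 9 kinases and effectors had a peak in each genotype, and *Blnk* and *Apbb1ip* had none. *Syk*, the kinase that docks on the ITAM, kept nearly equal values at its 3′ UTR. The upstream peak had a fold enrichment of 4.47 in WT and 4.45 in *Tyrobp*-/- mice, and the downstream peak 3.77 and 3.81. A short WT peak of 3.07 lay inside the longer *Tyrobp*-/- peak, and a WT peak of 6.35 in the 5′ UTR (FDR 0.0186) had no counterpart. The phospholipase gene *Plcg2* had a single peak in each genotype, in the 3′ UTR. At chr8:117634933-117635142 the fold enrichment was 15.1 in WT mice (FDR 3.98e-14) and 4.61 in *Tyrobp*-/- mice (FDR 6.92e-05). The log2 ratio of -1.71 was the lowest among the microglial genes, and the peaks covered 85.7% of each other's span or more.

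*Inpp5d*, which encodes the SHIP1 phosphatase that opposes this signal, had a 3′ UTR peak of 6.66 in WT and 4.54 in *Tyrobp*-/- mice. A second, short WT peak of 2.41 in the 3′ UTR and a *Tyrobp*-/- peak of 6.67 in the 5′ UTR (chr1:87620312-87620521, FDR 0.0282) were found in 1 genotype each. *Dock2*, an activator of RAC, had a fold enrichment of 8.46 in WT and 3.90 in *Tyrobp*-/- mice in its 3′ UTR at chr11:34227025-34228616, a log2 ratio of -1.12. The *Tyrobp*-/- peak ended earlier, at position 34227685, and the overlap covers 39.6% of the longer span. *Vav1*, another exchange factor, differed the other way, with 2.27 in WT and 5.96 in *Tyrobp*-/- mice, a log2 ratio of 1.39 between peaks that overlap in part (33.7%). *Dock8* had 4.15 and 5.08. *Lyn*, the SRC-family kinase, had a 3′ UTR peak of 6.70 in WT and 7.37 in *Tyrobp*-/- mice. A weak *Lyn* peak beyond the end of the gene in RefSeq, with 8.79 and 4.29, passed the 2-fold limit at an FDR of 0.0525 and 0.147.

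All 10 genes of homeostatic microglia had a peak in WT mice and 9 of them in *Tyrobp*-/- mice. Of their 19 matched peaks 1 passed 2-fold, in *Csf1r*, where 13.6% of all matched peaks passed it in either direction, so this count does not set these genes apart. The 19 include peaks listed under *Csf1r* and *Cx3cr1* that lie outside those genes in RefSeq. *Csf1r*, the receptor for CSF1 and IL-34, had a 3′ UTR peak of 5.66 in WT mice (FDR 1e-107) and 2.68 in *Tyrobp*-/- mice (FDR 1.58e-92), a log2 ratio of -1.08. The stronger peak listed further downstream, past the end of *Csf1r* in RefSeq, had 7.71 and 7.60. *Tmem119*, a membrane protein much used to mark microglia, had 8.72 in WT and 7.54 in *Tyrobp*-/- mice. The purinergic receptor gene *P2ry12* had 5.67 and 6.99, *P2ry13* had 5.19 and 5.98, and *P2ry6* had 6.5 and 8.61. The secreted glycoprotein gene *Olfml3* had 10.4 in both, and in *Tyrobp*-/- mice a second piece of the WT peak was called separately with 3.72.

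*Cx3cr1*, the fractalkine receptor, had its main 3′ UTR peak at chr9:120048760-120049536 with a fold enrichment of 13 in WT mice, and the matching peak had 14 in *Tyrobp*-/- mice. *Selplg*, which encodes the P-selectin ligand, had 5.22 in WT and 4.34 in *Tyrobp*-/- mice in its 3′ UTR. *Aif1*, the gene of the microglial marker IBA1, was weakly enriched, with 2.42 and 2.33 in its 3′ UTR and 3.37 and 3.57 in its 5′ UTR. Both genes stayed within 1.5-fold at every matched peak. *Gpr34*, a lysophosphatidylserine receptor, had a peak in WT mice only by name. Its WT peak, with a fold enrichment of 7.81, overlaps a *Tyrobp*-/- peak of 5.32 at chrX:13632846-13639575 (FDR 2.51e-51) that is listed under *Cask*, the gene in which *Gpr34* lies.

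The 3 transcription factors of the microglial lineage all had a peak in both genotypes, of unequal strength. *Spi1*, which encodes PU.1, the factor that macrophages depend on, had the highest fold enrichment of all microglial genes in WT mice. Its 3′ UTR peak at chr2:91114374-91115756 had 27.8 in WT and 23.3 in *Tyrobp*-/- mice. At the 5′ end of the same gene (chr2:91082420-91090099) the value was 13.3 in WT mice (FDR 1.26e-14) and 5.4 in *Tyrobp*-/- mice (FDR 0.00562), a log2 ratio of -1.3. *Sall1*, a factor of microglial identity within the brain, had 9.6 in WT and 13.1 in *Tyrobp*-/- mice, where the single WT peak was called as 2 pieces, the other with 10.3. *Runx1* had a weak 5′ UTR peak of 3.91 and 8.58, at an FDR of 0.0794 and 0.102.

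All 4 complement genes had a peak in both genotypes, and none of their 8 matched peaks passed 2-fold, a number too small to read against the 13.6% of all matched peaks. *C1qa* had 9.25 in WT and 13 in *Tyrobp*-/- mice in its 3′ UTR, and 5.63 and 4.88 in its 5′ UTR. *C1qb* had 2.28 and 3.18 in its 3′ UTR. *C1qc* had 2.89 and 2.86 there and 3.78 and 3.37 in an inner exon, so its 3 peaks, with the 5′ UTR peak printed above, were all of low enrichment in both genotypes. *C3ar1*, the receptor for the complement fragment C3a, had a 3′ UTR peak of 21.7 in WT and 14.5 in *Tyrobp*-/- mice. Of the 5 lysosomal genes only *Ctsd*, the gene of cathepsin D, had a peak, with 5.27 and 5.17. Among the genes of activated and phagocytic microglia, *Mertk*, a receptor for dying cells, had 6.79 and 7.23, whereas *Lpl*, which encodes lipoprotein lipase, had 18.3 in WT (FDR 1e-188) and 48.6 in *Tyrobp*-/- mice (FDR 1e-119). The *Lpl* peak at chr8:68905114-68905504, in the 3′ UTR, had a log2 ratio of 1.41 and was the strongest of any microglial gene in *Tyrobp*-/- mice. *Lpl* is also made by cells other than microglia, and which cells gave this signal cannot be told apart in whole hippocampus.

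Across all microglial genes, 57 peaks of 34 genes could be matched between genotypes, and their median log2 ratio was -0.02, against 0.05 for all 24554 matched peaks. The ratio was above 0 at 25 and below 0 at 31 of the 57 peaks, and 41 lay within 1.5-fold. At least 2-fold higher enrichment in *Tyrobp*-/- mice was found at 6 peaks (10.5%), in *Cd86*, *Lpl*, *Vav1*, *Runx1* and *Fcgr1*, where 7.17% of all matched peaks passed that limit. At least 2-fold lower enrichment was also found at 6 peaks (10.5%), in *Plcg2*, *Spi1*, *Fcgr1*, *Dock2*, *Csf1r* and *Lyn*, where 6.40% of all matched peaks did. These shares rest on 6 peaks each and lie near those of all peaks.

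**Figure D2:**
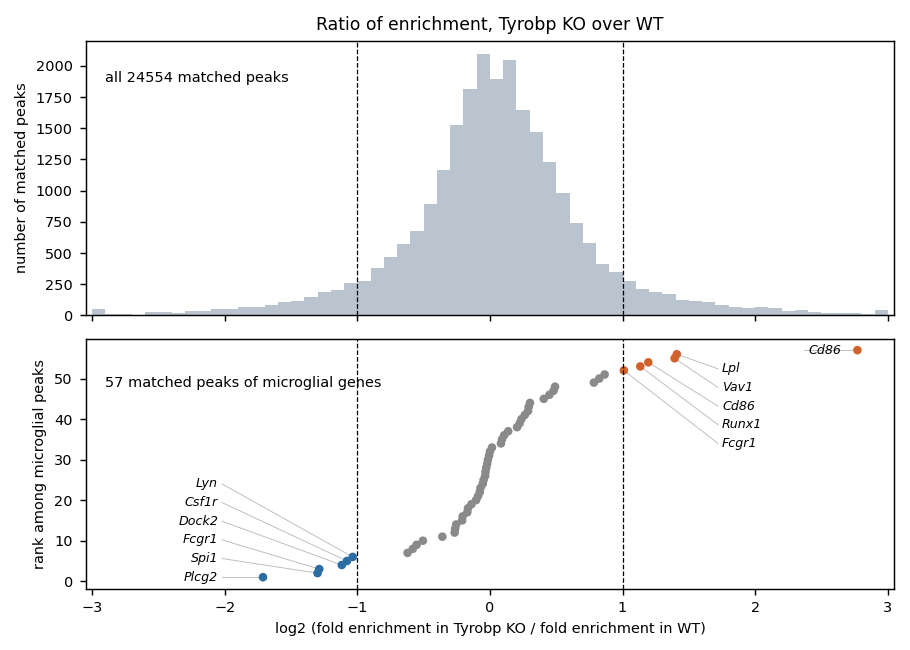
Log2 ratio of fold enrichment in Tyrobp KO over WT at matched peaks, as a histogram of all 24554 matched peaks (upper panel, values beyond 3 in either direction collected in the end bars) and as ranked points for the 57 peaks of microglial genes (lower panel). Dashed lines mark 2-fold; 6 microglial peaks lie beyond each line, named by their gene.

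Ratios past 2-fold were more frequent at weak peaks. Among the 41 matched peaks with an FDR below 1e-05 in both genotypes, 2 were at least 2-fold higher and 3 lower, and among the 16 weaker ones 4 were higher and 3 lower. All matched peaks showed the same order, with 4.62% higher and 3.67% lower among 18026 strong ones and 14.2% and 13.9% among 6528 weaker ones. The 5 strong microglial peaks past 2-fold were the pair in *Fcgr1* and those in *Lpl*, *Dock2* and *Csf1r*. Of the 12 peaks past 2-fold, 9 had an FDR below 0.05 in both genotypes, and 6 covered at least 50% of each other's span. Of these 6, 5 were lower and 1, in *Lpl*, was higher in *Tyrobp*-/- mice. Spans here include introns, and the overlap of exonic parts at that limit was not counted. The *Spi1* pair is among the 6, with exonic lengths of 390 bp in WT and 181 bp in *Tyrobp*-/- mice. The higher *Fcgr1* pair, with 834 and 774 bp, and the *Dock2* pair, with 721 and 631 bp, are not.

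**Figure D3:**
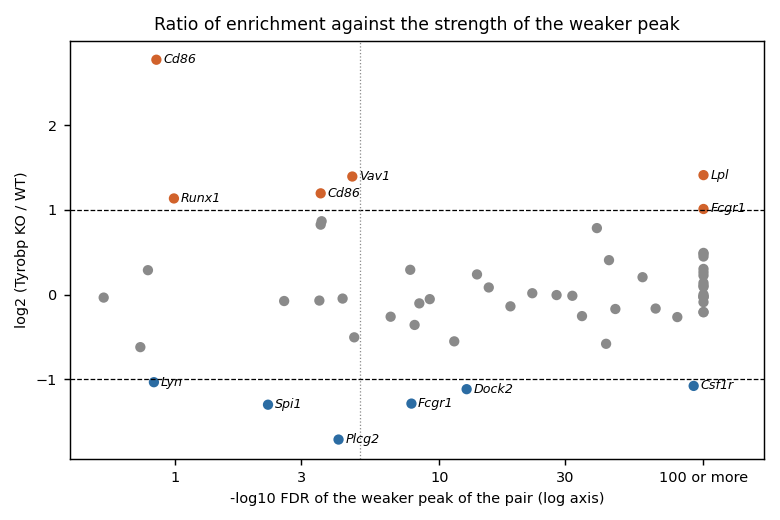
Log2 ratio of fold enrichment (Tyrobp KO over WT) of the 57 matched microglial peaks against -log10 of the FDR of the weaker peak of each pair (log axis, values of 100 or more drawn at 100). Dashed lines mark 2-fold and the dotted line an FDR of 1e-05; to its right 5 peaks lie past 2-fold, in *Fcgr1*, *Lpl*, *Dock2* and *Csf1r*.

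Peaks without any overlap in the other genotype made up 18 of the 79 WT peaks (22.8%, against 20.0% of all WT peaks) and 19 of the 80 *Tyrobp*-/- peaks (23.8%, against 22.1% of all). Of these, 8 of the 18 and 5 of the 19 had an FDR of 0.05 or more. Such weak peaks shared repeated values across the lists. The WT list gives a fold enrichment of 6.84 with an FDR of 0.275 at 814 peaks, and the *Tyrobp*-/- list 6.67 with an FDR of 0.29 at 887 peaks. Microglial examples are the 6.84 of WT peaks under *Cx3cr1*, *Cd86* and *Lyn*. A WT peak under *Fcgr2b* has the same value, although it overlaps a *Tyrobp*-/- peak. Shared values also occur among the matched peaks past 2-fold. The *Lyn* value of 8.79 in WT mice is shared by 491 other WT peaks. In *Tyrobp*-/- mice the *Runx1* value of 8.58 is shared by 542 other peaks and the *Cd86* value of 20.0 by 42. A value shared by so many peaks does not separate these genes from others.

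Most peaks of the microglial genes lay in 3′ UTRs. The share was 65.8% in WT mice (exact 95% interval 54.3% to 76.1%) and 62.5% in *Tyrobp*-/- mice (51% to 73.1%), and 47.2% and 49.3% of all peaks. With 1 peak for each gene, the strongest, the shares were 73.0% and 71.1%, but the same choice was not made for all genes. With 1 row a locus they were 63.5% and 60.5%, and no interval was computed for these shares. First exons held 3.8% of microglial peaks in WT mice and 2.50% in *Tyrobp*-/- mice, against 11.5% and 11.6% of all peaks. Shares in 5′ UTRs were 16.5% and 17.5%, against 18.9% and 17.3%. The intervals cover counting error only, and peaks of 1 gene are not independent of each other. Median fold enrichment reached 5.28 in the WT pool and 5.13 in the *Tyrobp*-/- pool, where all peaks together gave 5.54 and 5.72.

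**Figure D4:**
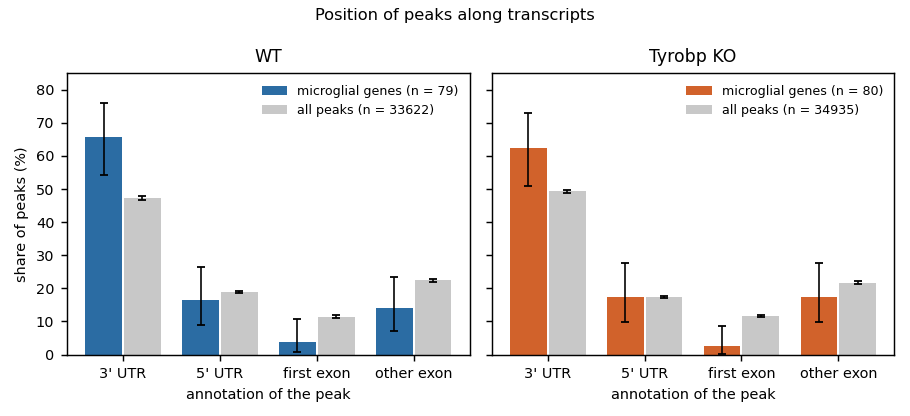
Share of peaks (%) by annotation in WT (left) and Tyrobp KO (right), for the microglial genes (coloured, n = 79 and 80 peaks) and for all peaks (grey, n = 33622 and 34935), with exact 95% binomial intervals as bars. The 3′ UTR share of the microglial genes is 65.8% and 62.5%. The intervals of this share lie above the shares of all peaks, but they count every listed row as independent. With repeated rows of a locus left out, the shares are 63.5% and 60.5%, and no interval was computed for them.

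The gene named for a peak was not always the gene at that place. Of the member peaks, 11 in WT and 12 in *Tyrobp*-/- mice overlapped no part of the named gene in RefSeq, and 18 and 16 overlapped another RefSeq gene. *Cx3cr1* was the clearest case, with 8 listed peaks in WT and 9 in *Tyrobp*-/- mice. Only 3 WT and 4 *Tyrobp*-/- peaks lie within the gene. Another 4 WT and 2 *Tyrobp*-/- peaks lie in *Xirp1*, a gene that lies beyond the 3′ end of *Cx3cr1*, with fold enrichments between 6.67 and 9.53. Of the peaks under *Csf1r*, 4 rows in each list lie within the RefSeq span of its neighbour *Hmgxb3*, which starts just beyond the end of *Csf1r*. *P2ry12* and *P2ry13* lie within *Med12l*, the 5′ UTR peaks of *Dock2* within *Insyn2b*, and the 3′ UTR peaks of *Inpp5d* overlap the noncoding gene *Gm33470*. Which of the overlapping transcripts gave the reads was not tested.

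**Figure D5:**
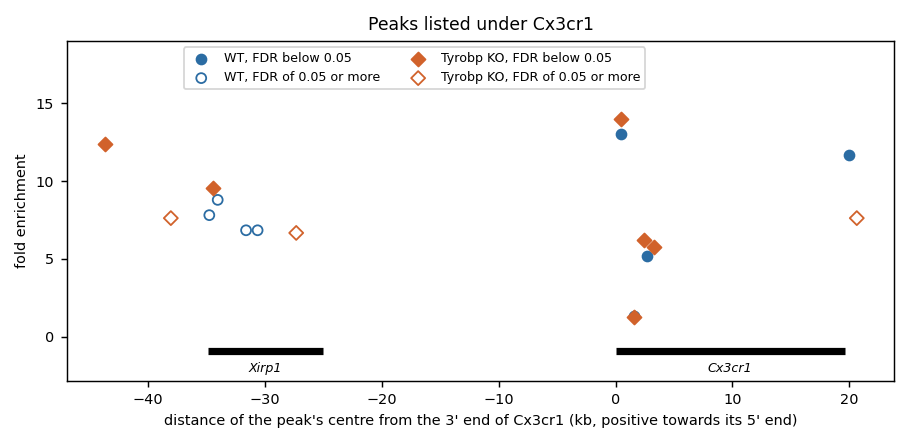
Fold enrichment of the peaks listed under *Cx3cr1* in WT (circles) and Tyrobp KO (diamonds), by the distance of the peak centre from the 3′ end of the gene (kb, positive towards its 5′ end). Filled symbols have an FDR below 0.05, and black bars show the RefSeq spans of *Xirp1* and *Cx3cr1*; the highest peaks, 13 and 14, sit near the 3′ end of *Cx3cr1*.

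The table in which the authors compared the genotypes names 11 of the 51 genes, in 12 rows, out of 5640 rows. The rule by which peaks entered it is not given in the sources used here, so a row there is no call of a difference. It lists *C1qc*, *Cd86*, *Cx3cr1*, *Dock2*, *Fcgr3*, *Inpp5d*, *Plcg2*, *Selplg*, *Siglech*, *Spi1* and *Tmem119*. These are 21.6% of the microglial genes (exact 95% interval 11.3% to 35.3%), and 17.7% of all protein-coding genes have a row there. *Inpp5d* is the gene with 2 rows, both in its 3′ UTR, and the *Cx3cr1* row lies outside that gene.

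Other genes of TYROBP signalling, 56 ligands, receptors, kinases and effectors outside the set, were counted in the same way. Of these 56 genes, 37 had a peak in WT and 38 in *Tyrobp*-/- mice, where 56.8% and 58.2% of all protein-coding genes did. A peak in both was listed for 34 of the 56. Of their 63 matched peaks, 5 were at least 2-fold higher and 1 lower in *Tyrobp*-/- mice, beside 7.17% and 6.40% of all matched peaks, with a median log2 ratio of 0.07. The highest values were in *Grb2*, an adaptor that links receptors to RAS, whose 5′ UTR peak had a fold enrichment of 9.34 in WT and 40.4 in *Tyrobp*-/- mice. The *Grb2* peak ended at position 115699924 in WT and reached further, to 115708419, in *Tyrobp*-/- mice, so the peaks differ in extent. *Dok3*, an inhibitory adaptor of immune cells, had 27.6 and 19.7, and *Gsk3b*, a kinase found in many cell types, had 23.2 and 23.0. Most of these kinases and adaptors are also expressed by neurons and other cells of the hippocampus, so their peaks are not microglial measurements.

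Markers of the other cells that a hippocampus holds were listed as follows, out of 10 genes each. Among all protein-coding genes, 56.8% had a peak in WT and 58.2% in *Tyrobp*-/- mice. Lists of 10 genes are too short to read against these shares. Neuronal markers had a peak in 9 genes in both genotypes, oligodendrocyte markers in 10 and 10, astrocyte markers in 9 and 10, and endothelial markers in 7 and 8. Markers of border macrophages, which sit in the meninges and around vessels and share many genes with microglia, had a peak in 3 genes in WT and in 7 in *Tyrobp*-/- mice. Their peaks numbered 5 and 13, of which 1 and 4 had an FDR of 0.05 or more. The strongest in WT mice was in the 3′ UTR of *Cd163*, a scavenger receptor, with a fold enrichment of 52.7 in WT and 17.5 in *Tyrobp*-/- mice. The strongest in *Tyrobp*-/- mice, with 19.1, was in the 3′ UTR of *F13a1*, which had no WT peak. In *Tyrobp*-/- mice the only peak of *Mrc1* and 1 of *Cd209f* had 10.5 at an FDR of 0.0174, which 297 peaks of that list share. Another peak of *Cd163* and another of *F13a1* had 6.67 at an FDR of 0.29, which 887 share. Monocyte and neutrophil markers had a peak in 2 genes in WT mice and in none in *Tyrobp*-/- mice. Both WT peaks were weak, *Ltf* with 4.39 at an FDR of 0.139 and *Retnlg* with 9.77 at an FDR of 0.0282, values that 370 WT peaks share in the case of *Retnlg*. The part of such cells in the values of the microglial genes was not tested, since peaks carry no level of expression.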

How the data were processed

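MeRIP-seq of hippocampal RNA was used, 12 libraries in 4 groups of 3. Reads had been trimmed and filtered by the authors in fastp and aligned by HISAT2 against GRCm38 (Ensembl v96). Peaks came from exomePeak, run once a genotype over its 3 samples, with positions annotated by ChIPseeker. The deposited files give counts of raw and valid reads per library, and for each peak a fold enrichment, the ratio of IP over input, with its log10 p and FDR. The deposited comparison of genotypes also holds 3 columns of the authors' own p, FDR and fold change, which were not used; its positions and gene names were. The depth behind a single peak is unknown.

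Peaks of both lists were matched when they carried the same gene identifier and their spans overlapped by at least 1 bp, largest overlap first and each peak once. The fold enrichment in Tyrobp KO was divided by that in WT, and ratios of at least 2 in either direction were counted. Peaks that overlapped any peak of the other list were called shared. Shares carry exact Clopper-Pearson 95% intervals, which cover counting error only. Positions were compared with RefSeq genes (GRCm38.p6). No test between genotypes was made, because pooled calls leave 1 value a genotype.

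The members, the lists of other genes and the comparisons were chosen with earlier results of these data known. Chosen to be named were *Tyrobp*, *Trem2*, *Fcer1g*, *Syk*, *Plcg2*, *Inpp5d* and *Csf1r*, and every gene listed in 1 genotype only. So were every matched peak past 2-fold and the 5 genes with the highest fold enrichment in each list. Where these had a peak, fold enrichments are given, but not always the FDR or the position. Of other lists at most 4 genes are named. Alternatives tried were stricter FDR and fold enrichment limits, other overlap rules and fold limits, centred ratios, 1 peak a gene, and peaks at another gene left out; 1 row a locus and an FDR below 0.05 were added after seeing the data. Matching was also checked on simulated lists. Tables were handled in pandas 2.3.3 and numpy 2.4.6 under Python 3.11.15, intervals computed in scipy 1.17.1, and figures drawn by matplotlib 3.10.9.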

Additional observations from a re-analysis of the deposited data

How the results depend on the processing

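No paired analysis was possible because peaks were called on the 3 samples of a genotype together, and leaving out a sample was not possible for the same reason. Of the values compared across alternatives, the median log2 ratio changed little and lay between -0.07 and 0.09. The number of microglial genes with a peak ranged from 28 to 37 in WT and from 29 to 38 in Tyrobp KO. Both numbers were lowest with a fold enrichment of at least 4. Stricter lists held fewer peaks by construction. With an FDR below 1e-05, 49 WT and 50 Tyrobp KO peaks were left, 6 and 5 of them in 1 genotype only, 2 matched peaks were at least 2-fold higher and 3 lower, and 76% of Tyrobp KO peaks lay in 3′ UTRs. With a fold enrichment of at least 4, 47 and 51 peaks were left, with medians of 6.84 and 7.37, and 2 were at least 2-fold higher and 4 lower. A reciprocal overlap of 50% of the spans, introns included, raised the peaks of 1 genotype only to 38 and 40. It left 1 matched peak higher and 5 lower, where 5.4% and 4.82% of all matched peaks were. A limit of 3-fold left 1 higher and 1 lower, and 1 peak a gene left 3 higher and 4 lower. With an FDR below 0.05, 10 WT peaks were found in that genotype only. Centring the ratios took the higher *Fcgr1* peak from a log2 ratio of 1.01 to 0.96.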
